A study of Mus musculus with 4 samples.

Results

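Peptide hormone maturation and the dense-core granule were followed through 10 genes in mouse colonoids: *Pcsk1*, *Pcsk2*, *Pcsk1n*, *Scg2*, *Scg3*, *Scg5*, *Cpe*, *Pam*, *Sv2c* and *Scgn*. They were picked by name from the 36144 rows of the deposited count table, as processing enzymes, secretogranins and vesicle genes said to be among those most lowered by butyrate. The rule therefore used the comparison of butyrate-treated with untreated colonoids, and the values of that comparison are given as a description of the members, with no test. The rule gave no cut-off value, and the values below show that most members were not among the most lowered genes.

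Colonoids are 3-dimensional cultures of colonic epithelium, here derived from the colon of a male mouse aged 24 weeks and analysed at passage 3. The labels give the genotype as WT, whereas a legend in the study gives Hes1-GFP. All cultures shared a medium with EGF, Noggin, R-spondin, CHIR99021 and Y-27632. Bulk RNA-seq covered untreated colonoids and colonoids cultured with sodium butyrate at 2 mM, harvested after 48 h or 72 h (the labels write day 2 and day 3, and hours for the butyrate libraries only). There were 4 conditions with 1 library each, and the untreated and butyrate libraries of a time point are called its pair below. With a single library per condition from a single line, no difference could be set against replicate error, and every interval below is a 95% interval for counting error only.

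Hormones of the gut endocrine cell are made as inactive precursors that are packed into dense-core granules. In the granule, prohormone convertases cut the precursor after pairs of basic residues, a carboxypeptidase trims the exposed basic residues, and an amidating enzyme finishes the C-terminus of many peptides. Granins help to form the granule and to sort its cargo, and a calcium signal triggers its fusion with the plasma membrane. In colonic epithelium this machinery is known mainly from enteroendocrine cells, which are few among absorptive and goblet cells.

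Library totals ran from 20790225 to 24207840 counts, and a floor of 3 counts corresponded to between 0.124 and 0.144 counts in each 1000000. Mitochondrial genes took from 14.1% to 18.4% of the counts. Epithelial markers such as *Epcam* and *Krt8* were abundant in each library, with summed scaled counts of the 6 markers between 137079 and 151308. Of the listed markers of other tissues, the neuronal *Hand2*, the glial *Sox10* and *S100b* and the fibroblast genes *Col3a1* and *Lum* had 0 counts in every library. Scaled counts, used below, are counts divided by a size factor for the depth of each library. Of the 36144 rows, 13979 had over 10 counts in 2 or more libraries, the filter used below, and 9 of the 10 members did so, each with more than 10 counts in all 4 libraries. *Pcsk2* did not pass.

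*Sv2c*, *Scgn* and *Scg3* were lower with butyrate at both times, *Scg5*, *Pam* and *Cpe* were higher at 48 h, and none of the 10 had a counting interval above 0 at 72 h. The members thus did not move as a block. A log2 fold change here is butyrate over untreated on scaled counts after adding a pseudocount of 1, and its interval was computed by the exact Clopper-Pearson method from both counts. At 48 h, 2 of the 10 members were at least 2-fold lower (3.08% of the 13979 genes were) and 0 were at least 2-fold higher (6.94%). At 72 h, 1 member was at least 2-fold lower (3.78%) and 0 were at least 2-fold higher (4.53%), and *Sv2c* alone was 2-fold lower at both times (0.887%). Counting intervals lay wholly below 0 for 4 members at 48 h (31.3% of all genes), for 5 at 72 h (26.4%) and for 3 at both (13.6%). They lay wholly above 0 for 3 members at 48 h (29.3%) and for 0 at 72 h (25.9%). The median log2 fold change of the 10 was −0.32 at 48 h and −0.56 at 72 h, with *Pcsk2* at its bound at 72 h, against −0.01 and 0.00 for all genes. Since the members were chosen on these contrasts, these counts and medians carry no further weight. RNA came from whole cultures, in which fewer cells of a type and less RNA per cell cannot be told apart.

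**Figure D1:**
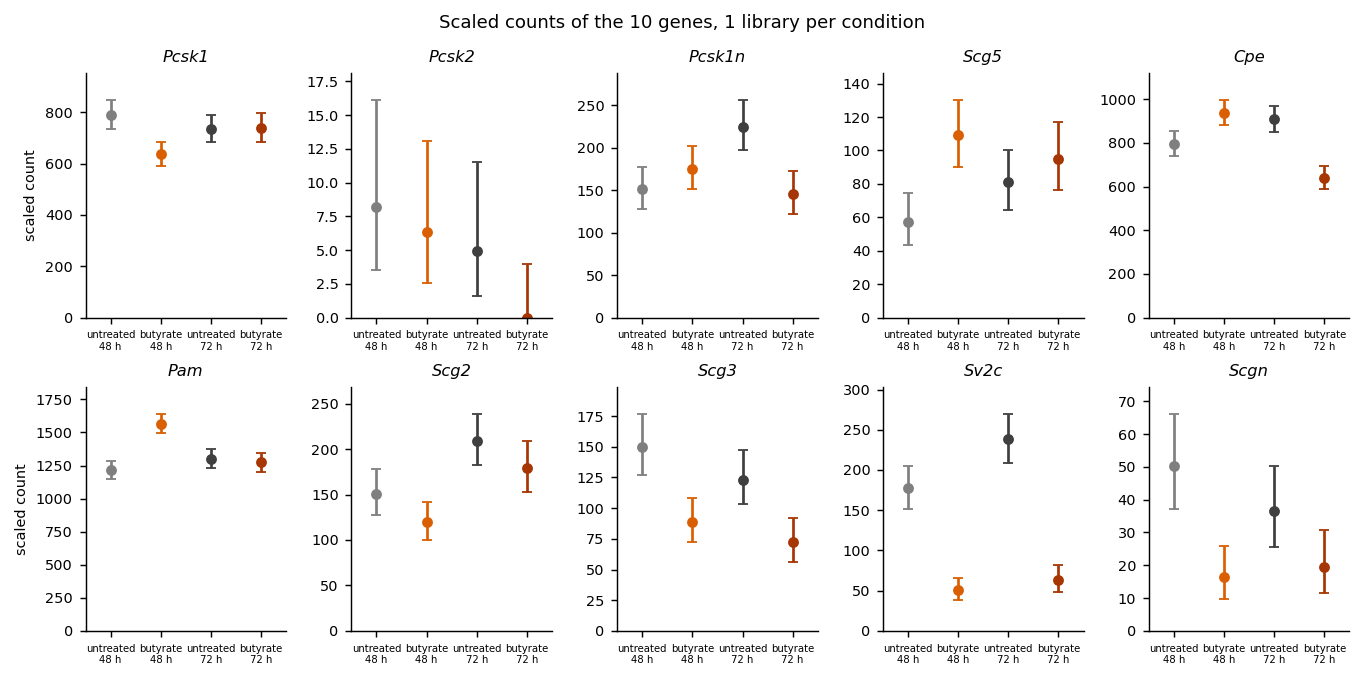
Scaled counts (y axis, linear, from 0) of each of the 10 genes in the 4 libraries (x axis: untreated and butyrate-treated colonoids at 48 h and 72 h). Points are single libraries and bars are exact 95% Poisson intervals for counting error. *Sv2c* and *Scgn* sit lower in both butyrate libraries than in both untreated ones, whereas *Scg5* sits lowest in the untreated library at 48 h.

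The convertases come first. *Pcsk1* encodes PC1/3, the convertase that cleaves proglucagon in the intestinal L cell, and lies on chromosome 13 from 75089826 to 75134861 (GRCm38, plus strand). In the 48 h pair its scaled count was 789 without and 636 with butyrate, and in the 72 h pair 736 without and 741 with it. The butyrate library at 48 h was thus the lowest, and the other 3 lay close together. The log2 fold change came to −0.31 (−0.46 to −0.16) in the 48 h pair, against 0.01 (−0.14 to 0.16) in the 72 h pair, where *Pcsk1* was in the middle of all genes, with 51.1% at or below it. Between the untreated libraries *Pcsk1* changed by −0.10 (−0.25 to 0.05) from 48 h to 72 h, and between the butyrate libraries by 0.22 (0.07 to 0.37).

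*Pcsk2* encodes PC2, the second convertase of neuroendocrine granules (chromosome 2, 143546156 to 143816285, plus strand). The 48 h pair had 8 counts without and 7 with butyrate, and the 72 h pair 5 without and 0 with it, so that it was close to undetected in all 4 libraries. The difference at 48 h was −0.32 with an interval from −2.06 to 1.29. At 72 h it was at least 1.52-fold lower if the count of 0 is read as the floor of 3 counts, a bound that leaves aside the counting error of the 5 untreated counts. The counting interval of this difference had no lower end and an upper end of 0.26, and no difference was detectable at this depth.

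Both convertases have a small granule protein as a partner. *Pcsk1n* encodes proSAAS, an inhibitor of PC1/3 (chromosome X, 7919822 to 7924410, plus strand). Scaled counts were 151 without and 175 with butyrate in the 48 h pair, and 225 without and 146 with it in the 72 h pair. The untreated library at 72 h was the highest, although its counting interval (197 to 256) overlapped that of the butyrate library at 48 h (151 to 202). *Pcsk1n* changed with butyrate by 0.21 (−0.11 to 0.53) at 48 h and by −0.62 (−0.94 to −0.31) at 72 h. Between the untreated libraries it was higher at 72 h by 0.57 (0.27 to 0.88), a change nearly as large as the one with butyrate. The butyrate library at 72 h therefore stood near the untreated level of 48 h.

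*Scg5* encodes 7B2, a chaperone that PC2 needs to become active (chromosome 2, 113776362 to 113829121, minus strand). Its point estimate was higher with butyrate at both times. The 48 h pair had 56 counts without and 120 with butyrate, and the 72 h pair 82 without and 88 with it. After scaling, the log2 fold change came to 0.92 (0.46 to 1.41) in the 48 h pair, a 1.89-fold higher level, and to 0.23 (−0.22 to 0.68) in the 72 h pair. The untreated library at 48 h was the lowest of the 4 in its point value. Its counting interval after scaling (43.3 to 74.4) overlapped that of the untreated library at 72 h (64.4 to 100). At 48 h, 92.2% of all genes were at or below *Scg5*.

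Of the enzymes that act after cleavage, *Cpe* encodes carboxypeptidase E, which removes the basic residues left at the cut (chromosome 8, 64592542 to 64693054, minus strand). Scaled counts were 797 without and 936 with butyrate in the 48 h pair, and 909 without and 639 with it in the 72 h pair, so that the 2 butyrate libraries were the highest and the lowest of the 4. *Cpe* changed by 0.23 (0.10 to 0.37) at 48 h and by −0.51 (−0.66 to −0.36) at 72 h. *Pam* encodes the amidating monooxygenase (chromosome 1, 97795114 to 98095646, minus strand). Here they were 1216 without and 1566 with butyrate in the 48 h pair, and 1302 without and 1273 with it in the 72 h pair. Only the butyrate library at 48 h stood apart, with a log2 fold change of 0.36 (0.26 to 0.47) against −0.03 (−0.15 to 0.08) at 72 h. *Cpe* and *Pam* are also made by cells outside the endocrine lineage, which bulk libraries include.

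The secretogranins differed from each other. *Scg2*, whose product is a granin cleaved to smaller peptides (chromosome 1, 79434669 to 79440120, minus strand), had scaled counts of 151 without and 120 with butyrate in the 48 h pair, and of 209 without and 179 with it in the 72 h pair. Both libraries of 72 h were above both of 48 h in their point values, although the counting intervals of the untreated library at 48 h and the butyrate library at 72 h overlapped. With butyrate it changed by −0.34 (−0.69 to 0.01) in the 48 h pair and by −0.22 (−0.53 to 0.08) in the 72 h pair, and both intervals held 0. From 48 h to 72 h it was higher by 0.47 (0.16 to 0.78) untreated and by 0.58 (0.24 to 0.92) with butyrate.

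*Scg3* encodes a granin that binds chromogranin A and the granule membrane (chromosome 9, 75643189 to 75684056, minus strand). Scaled counts were 150 without and 88.9 with butyrate in the 48 h pair, and 123 without and 72.4 with it in the 72 h pair. Both butyrate libraries were below both untreated ones in their point values. The log2 fold change came to −0.75 (−1.14 to −0.38) in the 48 h pair and to −0.76 (−1.22 to −0.33) in the 72 h pair, that is 1.68-fold and 1.70-fold lower. Of all genes, 5.52% and 5.83% were at or below it.

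Among the 9 members past the filter, *Sv2c* had the lowest log2 fold change at both times. It encodes a synaptic vesicle glycoprotein of the SV2 family (chromosome 13, 95954594 to 96132577, minus strand). The 48 h pair had 173 counts without and 56 with butyrate, and the 72 h pair 241 without and 59 with it. Scaled counts were 177 and 50.8 in the first pair, and 238 and 63.7 in the second. The intervals of the scaled counts in the butyrate libraries ended at 66.0 and 82.2, below the start of those in the untreated libraries at 152 and 209. The log2 fold change came to −1.78 (−2.26 to −1.36) in the 48 h pair, 3.43-fold lower, and to −1.88 (−2.34 to −1.48) in the 72 h pair, 3.69-fold lower. *Sv2c* ranked 129 and 141 from the lowest of 13979 genes. Over time it was higher at 72 h by 0.43 (0.14 to 0.72) without butyrate and differed by 0.32 (−0.23 to 0.88) with it.

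*Scgn* encodes secretagogin, a calcium-binding protein of endocrine cells (chromosome 13, 23953456 to 23991214, minus strand). Counts were low, at 49 without and 18 with butyrate in the 48 h pair, and 37 without and 18 with it in the 72 h pair. The point values of both butyrate libraries were below those of both untreated libraries. *Scgn* changed by −1.56 (−2.48 to −0.81) in the 48 h pair, 2.95-fold lower, and by −0.88 (−1.81 to −0.06) in the 72 h pair, 1.84-fold lower. Its rank from the lowest was 175 at 48 h and 686 at 72 h, and the wide intervals reflect the small counts.

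**Figure D2:**
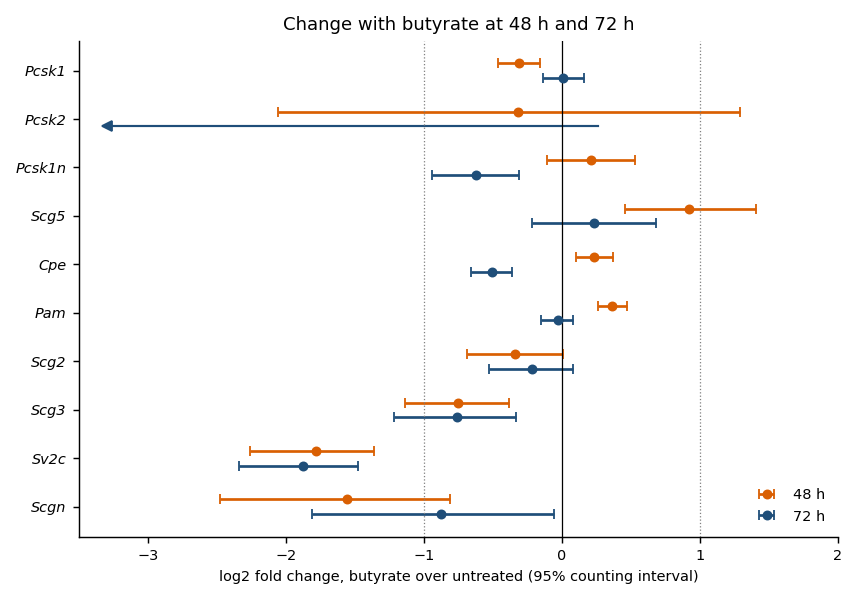
Log2 fold change of butyrate over untreated colonoids (x axis) for each of the 10 genes (y axis) at 48 h and 72 h, with exact 95% intervals for counting error and dotted lines at a 2-fold change. *Sv2c* lies beyond 2-fold at both times (−1.78 and −1.88), and the arrow for *Pcsk2* at 72 h marks an interval with no lower end, drawn without a point because the butyrate library had 0 counts.

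The change with butyrate was set at 72 h against that at 48 h for each member past the filter, as the difference of the 2 log2 fold changes with an interval from the Poisson variances. It was below 0 for *Pcsk1n*, at −0.83 (−1.27 to −0.40), *Cpe*, at −0.74 (−0.94 to −0.54), *Scg5*, at −0.69 (−1.32 to −0.06), and *Pam*, at −0.40 (−0.55 to −0.24). For *Pcsk1* it was above 0, at 0.32 (0.11 to 0.53). Of the 3 members lower at both times, *Sv2c* had a difference of −0.10 (−0.70 to 0.49) and *Scg3* of −0.01 (−0.58 to 0.55). For *Scgn* it was 0.68 (−0.44 to 1.81), too imprecise at these counts to tell a small difference from a large one. For *Scg2* the difference was 0.11 (−0.34 to 0.56). These differences have no replicate check, and exposure time and culture cannot be told apart, since each time point had its own cultures.

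Over time in untreated colonoids, 4 members had a counting interval above 0 (22.4% of all genes) and 0 below it (20.2%). Those higher at 72 h were *Pcsk1n*, *Scg2*, *Sv2c* and *Cpe*, the last by 0.19 (0.05 to 0.33). Between the butyrate libraries, 3 members had an interval below 0 (31.4%) and 2 above it (30.0%). *Cpe* changed by −0.55 (−0.70 to −0.40) and *Pam* by −0.30 (−0.41 to −0.19), *Pcsk2* had 7 and 0 counts, and the higher ones were *Scg2* and *Pcsk1*. These time comparisons share their libraries with the butyrate comparisons and are not independent of them.

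**Figure D3:**
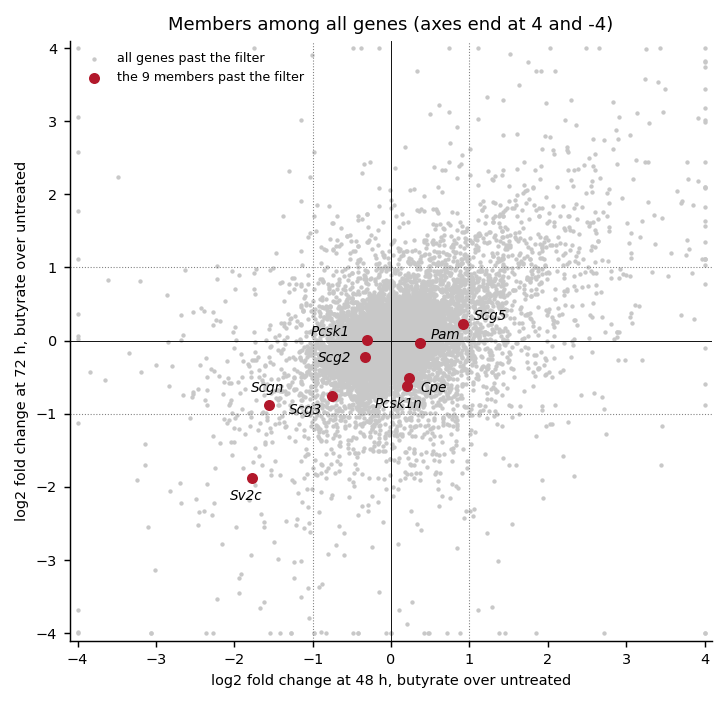
Log2 fold change of butyrate over untreated colonoids at 48 h (x axis) and 72 h (y axis) for the 13979 genes past the filter (grey), with the 9 members past the filter in red, dotted lines at a 2-fold change, and values beyond 4 drawn at the edge. *Sv2c* is at the lower left outside the main cloud, *Scgn* and *Scg3* lie at its lower left side, and the other 6 members lie within it.

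Levels were compared between genes per length, as TPM (counts per kb of the union of annotated exons, scaled to a sum of 1000000 in each library). *Cpe* was the highest in every library, at 33.1 TPM without and 39.0 TPM with butyrate in the 48 h pair, and 34.3 TPM without and 26.1 TPM with it in the 72 h pair. *Pcsk1* followed with 12.3 to 15.3 TPM and *Pam* with 10.8 to 14.3 TPM, and their ranges overlapped. *Pcsk1n* (7.09 to 10.1 TPM), *Scg2* (5.18 to 8.20 TPM), *Scg5* (3.96 to 7.55 TPM) and *Scg3* (2.82 to 5.96 TPM) each overlapped the next. *Scgn* had 1.10 to 3.36 TPM and *Sv2c* 0.570 to 2.42 TPM, also overlapping, and *Pcsk2* had at most 0.112 TPM, below all the others. The rank of *Pam* depended on the length used, since with its longest transcript of 4102 bases in place of the exon union of 11892 bases it had 26.7 to 34.7 TPM and came second to *Cpe* in 3 libraries and first in the butyrate library at 72 h, where *Cpe* had 27.2 TPM.

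**Figure D4:**
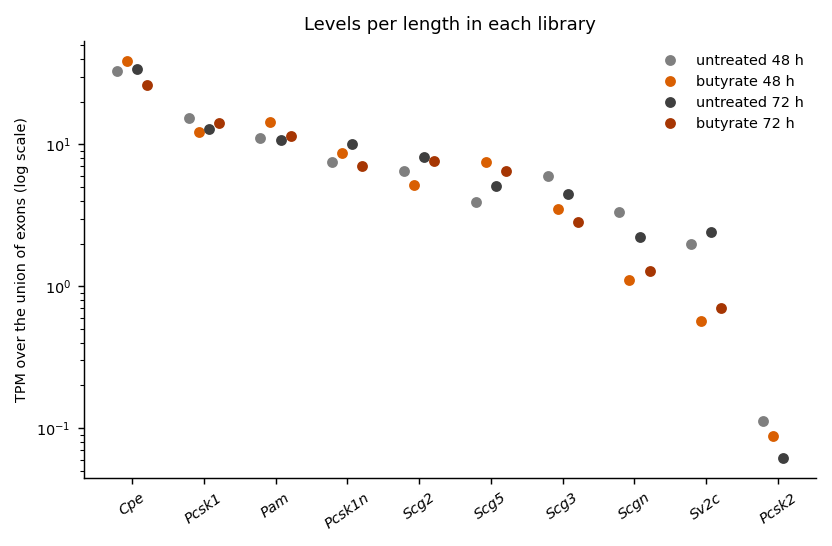
Level of each gene (x axis, ordered by mean) in TPM over the union of exons (y axis, log scale), with 1 point per library. *Cpe* is above the other 9 genes in every library (26.1 to 39.0 TPM), and the points of *Sv2c* and *Scgn* with butyrate lie below those without. *Pcsk2* in the butyrate library at 72 h had 0 counts and cannot be drawn on a log axis.

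The balance between members was not constant across the libraries. The TPM ratio of *Pcsk1* to its inhibitor gene *Pcsk1n* was 2.04 without and 1.42 with butyrate in the 48 h pair, and 1.28 without and 1.99 with it in the 72 h pair, so that it was lower with butyrate at the first time and higher at the second. *Cpe* over *Pcsk1* was 2.17 and 3.16 in the 48 h pair and 2.66 and 1.85 in the 72 h pair, in the reverse order. *Sv2c* over *Scg2*, in contrast, was 0.303 and 0.110 at 48 h and 0.295 and 0.0922 at 72 h, about equal in the untreated libraries and lower in both butyrate libraries. *Sv2c* made up 2.23% of the summed TPM of the 10 genes without and 0.617% with butyrate in the 48 h pair, and 2.67% and 0.903% in the 72 h pair.

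The summed scaled counts of the 10 members were 3547 without and 3704 with butyrate in the 48 h pair, and 3866 without and 3229 with it in the 72 h pair, a sum to which *Pam*, *Cpe* and *Pcsk1* gave most counts. The 5 other genes with a mean scaled count of at least 100 whose profile over the 4 libraries was closest to that sum were *Sod2*, *Krt19*, *Tom1l2*, *Slc7a7* and *Klhdc3*, with root mean square distances from 0.007 to 0.016 on the log2 scale. Of the 10766 genes compared, 176 were within 0.05 and 1309 within 0.1, so the profile of the sum was a common one.

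Markers of the enteroendocrine cell moved with some members. The summed scaled counts of 8 markers (*Chga*, *Chgb*, *Neurod1*, *Insm1*, *Gcg*, *Pyy*, *Tph1* and *Sct*) were 8190 without and 9478 with butyrate in the 48 h pair (1.16 times) and 10203 without and 5621 with it in the 72 h pair (0.551 times). *Chgb* supplied from 50.6% to 57.8% of this sum, and without it the other 7 markers had ratios of 0.987 at 48 h and 0.531 at 72 h. At 72 h all 8 had intervals below 0 (26.4% of all genes), with a median of −0.87. At 48 h, 2 had intervals below 0 (31.3%) and 2 above (29.3%), with a median of 0.05. None of the 8 was at 0 in any library. Per 100 marker counts, *Sv2c* stood at 2.16 without and 0.536 with butyrate in the 48 h pair, and at 2.33 and 1.13 in the 72 h pair, lower with butyrate both times. *Scgn* stood at 0.612 and 0.172 at 48 h and at 0.358 and 0.346 at 72 h, lower with butyrate at 48 h and about equal at 72 h. These ratios carry no interval, and *Scgn* had only 18 to 49 counts. *Pcsk1* went from 9.64 to 6.71 at 48 h and from 7.21 to 13.2 at 72 h, and *Scg3* from 1.84 to 0.938 and from 1.21 to 1.29. With *Chgb* left out of the markers, *Sv2c* stood at 4.37 and 1.27 in the 48 h pair and at 4.94 and 2.49 in the 72 h pair, again lower with butyrate at both times. The part of endocrine cell number in the members' values was not tested.

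Several members are also neuronal genes. Of 7 enteric neuron markers 4 passed the filter, and the summed scaled counts of the 7 were 311 without and 201 with butyrate in the 48 h pair, and 376 without and 187 with it in the 72 h pair. *Ret*, a receptor that epithelial endocrine cells can also express, supplied most of these, with 217 and 137 counts in the 48 h pair and 285 and 88 in the 72 h pair, and the neuronal factor gene *Hand2* was at 0 in all 4 libraries. The 6 fibroblast markers summed to between 15.1 and 21.8, with 1 past the filter, and the 4 glial markers to between 36.3 and 68.0, with 1 past the filter.

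The rest of the granule machinery was followed in lists written for this purpose. Among 5 granins and luminal partners, all past the filter, 3 had intervals above 0 and 0 below at 48 h (29.3% and 31.3% of all genes), with a median of 0.38. At 72 h, 1 was above and 2 below (25.9% and 26.4%), with a median of −0.43. *Chgb*, the chromogranin B gene, had scaled counts of 4142 and 5481 at 48 h and 5387 and 3065 at 72 h, and changed by 0.40 (0.35 to 0.46) and −0.81 (−0.88 to −0.75). *Chga* changed by 0.07 (−0.03 to 0.16) and −1.04 (−1.15 to −0.92). *Resp18*, a luminal granule protein gene, had 24 and 65 counts in the 48 h pair and 57 and 40 in the 72 h pair. None of these 5 had an interval below 0 at both times, as *Scg3* did.

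Of 26 genes of dense-core vesicle docking and exocytosis, 21 passed the filter, and 4 were at least 2-fold lower and 0 higher at 48 h (3.08% and 6.94% of all genes), and 2 lower and 0 higher at 72 h (3.78% and 4.53%). The medians were −0.18 and −0.37. *Cadps2*, which primes dense-core vesicles for fusion, had scaled counts of 738 and 327 at 48 h and 828 and 377 at 72 h, and changed by −1.17 (−1.36 to −0.99) and −1.13 (−1.32 to −0.95). *Rab27b*, a small GTPase of granule docking, changed by −1.22 (−1.39 to −1.05) and −0.99 (−1.16 to −0.83). *Cplx2*, a complexin that clamps the fusion complex, changed by −1.96 (−2.22 to −1.72) at 48 h and by −0.57 (−0.76 to −0.39) at 72 h. In the other direction, the priming factor *Unc13a* changed by 0.70 (0.40 to 1.01) and 0.68 (0.39 to 0.98), *Stx1a* by 0.57 (0.30 to 0.86) and 0.11 (−0.14 to 0.37), and *Doc2b* by 0.64 (−0.05 to 1.39) and 0.36 (−0.28 to 1.02). *Syt4* had 0 counts in all 4 libraries.

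The granule membrane and biogenesis list held 10 genes, 8 of them past the filter, with medians of −0.12 and −0.16. At 48 h, 1 was at least 2-fold lower and 2 higher (3.08% and 6.94% of all genes), and at 72 h 1 was lower and 0 higher (3.78% and 4.53%). *Ptprn2*, a granule membrane phosphatase-like protein, changed by −1.06 (−1.22 to −0.89) and −0.89 (−1.05 to −0.73), whereas its relative *Ptprn* changed by 1.12 (0.58 to 1.73) and 0.08 (−0.44 to 0.61). *Slc18a1*, the vesicular monoamine transporter of endocrine cells, changed by −0.51 (−0.83 to −0.20) and −0.79 (−1.13 to −0.46). The relatives of *Sv2c* had few counts. *Sv2a* had 7 and 26 counts in the 48 h pair and 13 and 3 in the 72 h pair, and *Sv2b* had 6 and 4 and then 5 and 0. Neither had an interval below 0 at both times, and *Sv2a* had opposite directions, with 1.59 (0.48 to 3.17) at 48 h and −1.71 (−4.44 to −0.12) at 72 h.

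Convertases and carboxypeptidases of the general secretory pathway, which act in most cells, gave 10 genes for comparison with *Pcsk1*, *Pcsk2* and *Cpe*. Of these, 9 passed the filter, with medians of −0.32 and −0.14. At 48 h, 7 intervals were below 0 and 1 above (31.3% and 29.3% of all genes), and at 72 h 5 were below and 2 above (26.4% and 25.9%). *Furin* changed by −0.39 (−0.51 to −0.28) and −0.30 (−0.41 to −0.20) and *Pcsk7* by −0.47 (−0.58 to −0.36) at both times. *Cpm* had the lowest values of this list, at −0.80 (−0.98 to −0.62) and −1.12 (−1.32 to −0.92), and *Pcsk6* was higher at 72 h only, by 1.16 (0.87 to 1.47). At 48 h the change of *Pcsk1*, at −0.31, was thus close to the median of this list. The values of the list at 48 h ran from −0.80 to 0.99, the highest being that of *Pcsk4* (0.68 to 1.33). Among 5 other maturation enzymes, the medians were 0.30 and −0.16, and the protease gene *Ctsl* was higher at both times, by 1.16 (1.08 to 1.23) and 0.38 (0.30 to 0.46).

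The substrates and regulators were listed as well. Of 12 hormone and hormone synthesis genes, 9 passed the filter. At 48 h, 2 of them were at least 2-fold lower and 1 at least 2-fold higher (3.08% and 6.94% of all genes), and at 72 h 5 were lower and 0 higher (3.78% and 4.53%). Of 12 enteroendocrine transcription factor genes, all past the filter, 9 had intervals below 0 at 48 h (31.3% of all genes) and 7 at 72 h (26.4%), and 0 had intervals above 0 at either time, with medians of −0.68 and −0.50. *Insl5*, a hormone of colonic L cells, changed by −0.35 (−0.61 to −0.09) and −1.47 (−1.82 to −1.15), and *Nkx2-2* by −0.71 (−1.11 to −0.33) and −1.29 (−1.79 to −0.84). *Tph1*, which encodes the enzyme of serotonin synthesis, changed by 1.22 (0.86 to 1.62) at 48 h and −1.05 (−1.48 to −0.65) at 72 h. *Nts*, the neurotensin gene, changed by 0.67 (0.42 to 0.93) and 0.06 (−0.17 to 0.28).

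**Figure D5:**
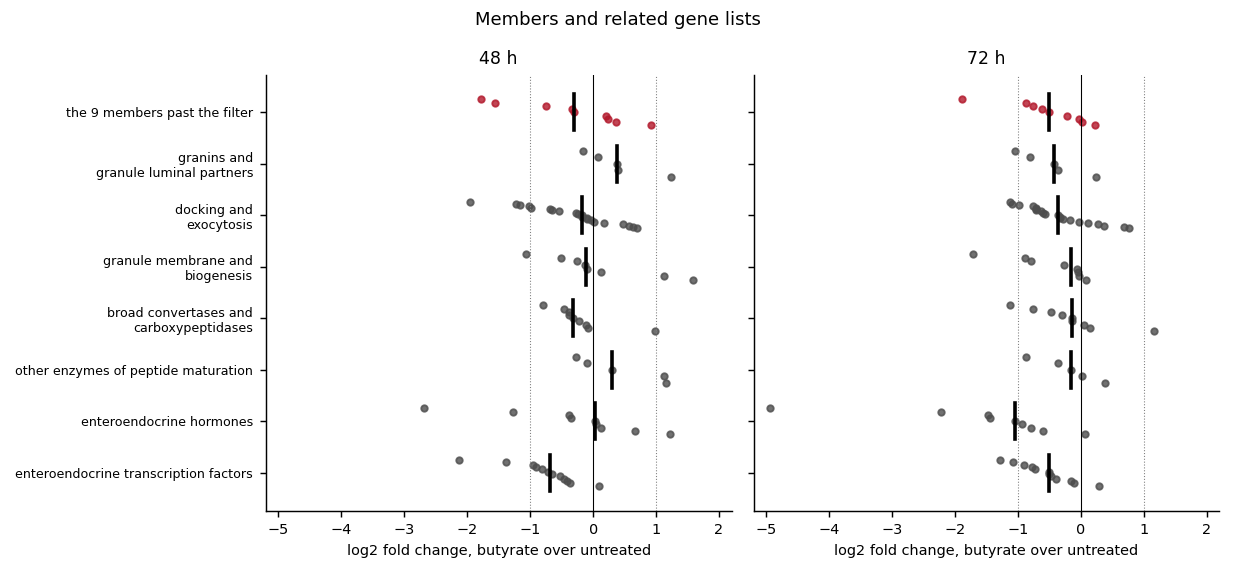
Log2 fold change of butyrate over untreated colonoids (x axis) at 48 h (left) and 72 h (right) for the 9 members past the filter (red) and for genes past the filter in 7 lists (grey), with black bars at the medians and dotted lines at a 2-fold change. The hormone genes have a median near 0 at 48 h and of −1.05 at 72 h, and the leftmost hormone gene at 72 h is *Tac1*, with 0 counts in the butyrate library, so that its place depends on the pseudocount.

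Promoter sequences, from 250 bases before to 50 bases after the RefSeq transcription start, were found for 9 of the 10 members in the GRCm38.p6 build, *Cpe* being the one without an entry. The promoters of *Sv2c*, *Scgn* and *Scg3* are shown because these genes were lower with butyrate at both times, and that of *Scg5* because its change was the highest at 48 h. Capitals mark matches, on either strand, of the GC box GGGCGG and of the short cAMP response element TGACG.
*Sv2c*, chr13:96132528-96132827, minus strand: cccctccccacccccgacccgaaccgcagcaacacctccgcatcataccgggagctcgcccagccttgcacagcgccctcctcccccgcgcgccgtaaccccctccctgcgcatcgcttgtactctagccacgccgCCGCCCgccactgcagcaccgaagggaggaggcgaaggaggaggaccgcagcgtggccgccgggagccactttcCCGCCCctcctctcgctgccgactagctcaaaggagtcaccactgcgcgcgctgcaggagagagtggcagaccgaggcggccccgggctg
*Scgn*, chr13:23991165-23991464, minus strand: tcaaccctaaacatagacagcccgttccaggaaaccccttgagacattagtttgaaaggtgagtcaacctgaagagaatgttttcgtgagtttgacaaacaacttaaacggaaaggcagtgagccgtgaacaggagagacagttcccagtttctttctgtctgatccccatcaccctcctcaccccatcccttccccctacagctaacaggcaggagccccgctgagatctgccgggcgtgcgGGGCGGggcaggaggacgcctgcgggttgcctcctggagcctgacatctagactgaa
*Scg3*, chr9:75684007-75684306, minus strand: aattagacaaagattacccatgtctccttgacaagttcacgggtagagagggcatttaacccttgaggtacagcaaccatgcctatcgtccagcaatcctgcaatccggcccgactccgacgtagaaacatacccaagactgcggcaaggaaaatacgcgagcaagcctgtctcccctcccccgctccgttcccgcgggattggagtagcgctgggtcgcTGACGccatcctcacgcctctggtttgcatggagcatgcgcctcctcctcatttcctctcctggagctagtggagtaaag
*Scg5*, chr2:113829042-113829341, minus strand: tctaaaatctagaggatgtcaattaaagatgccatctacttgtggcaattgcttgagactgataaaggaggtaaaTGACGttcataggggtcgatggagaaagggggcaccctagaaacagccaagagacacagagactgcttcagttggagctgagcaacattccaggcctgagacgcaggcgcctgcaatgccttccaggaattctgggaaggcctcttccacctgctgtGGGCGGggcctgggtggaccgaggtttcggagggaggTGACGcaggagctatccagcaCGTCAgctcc
The *Sv2c* promoter had 71.7% GC, *Scgn* 54.7%, *Scg3* 55.7% and *Scg5* 54.0%, against a median of 52.7% over 32851 RefSeq promoters of the same length. With the transcription start as position 1, the GC boxes began at −114 and −40 in *Sv2c*, at −7 in *Scgn* and at −18 in *Scg5*. Short cAMP response elements began at −30 in *Scg3* and at −175, 20 and 41 in *Scg5*. No motif searched was present in all 3 promoters of the genes lower at both times.

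A promoter of 7 of the 9 members held GGGCGG, which 35.7% of the 32851 promoters hold, and 5 held TGACG, which 20.8% hold. The full cAMP response element TGACGTCA, which contains TGACG on both strands and is found in 1.79% of promoters, was present in 2, beginning at −78 in *Pcsk1* and at −68 in *Scg2*. The general E-box CANNTG was present in 5 of the 9 members (72.3% of promoters). Its form CAGATG, named for NeuroD and Neurog3 factors (17.2%), and TATAAA (13.6%) were in 0 of the 9. These letters were searched on both strands in these windows only, and a match is not a site in use.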

How the data were processed

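Bulk RNA-seq of 4 mouse colonoid libraries was analysed. The authors deposited whole-number counts per gene without normalisation or filter. They are rounded estimates, since reads from poly-A libraries were quantified by pseudoalignment (kallisto 0.44.0 and GRCm38.p6 in the submitters' processing notes) and summed to genes with tximport, so reads of near-identical genes may be shared out. In the gene names, 26 had become calendar dates and 2 occurred more than once. These rows stayed in the totals and were not named.

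Genes were kept if 2 or more libraries had over 10 counts. DESeq2 1.42.0 gave the size factors, and edgeR 4.0.16 the TMM factors of an alternative (R 4.3.3). Python 3.11.15 was used for all else (scipy 1.17.1, numpy 2.4.6, pandas 2.3.3, matplotlib 3.10.9). A pseudocount of 1 was added to scaled counts before log2 fold changes. Exact Clopper-Pearson (fold changes) and Poisson (levels) intervals at 95% and the floor of 3 counts describe counting error alone. Reads lacking molecular identifiers do not each stand for a separate molecule, so the intervals may be too narrow even for that error. No p-values were computed, as each condition had 1 library. Exon lengths and positions came from the GENCODE M21 annotation of GRCm38, and promoters from RefSeq. The fold changes and their counting intervals were tested on simulated counts of the 48 h pair, drawn with counting error alone. The other steps were not tested on simulated data.

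The 10 members, the gene and marker lists and the naming rule were chosen with earlier results of these data known. All members were named. List genes could be named if 2 or more libraries had 10 counts or more, starting with those of the lowest and highest mean fold change. *Syt4*, *Sv2b* and the marker genes at 0 fall outside this rule and were named after their values were seen. Alternatives tried were a pseudocount of 5, scaling by TMM or by total count, thinning to the smallest library, other gene filters, another length and, chosen after seeing the data, the enteroendocrine marker sum without *Chgb*. Protein sequences were not used here, so the planned comparison of proteins was not made. One listed marker gene is not reported here.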

Additional observations from a re-analysis of the deposited data

Results flagged for a closer look

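*Cpe*, the carboxypeptidase E gene, stood out because its change with butyrate had opposite directions at the 2 times, with both counting intervals away from 0. It changed by 0.23 (0.10 to 0.37) on the log2 scale in the 48 h pair, with 779 counts without and 1032 with butyrate, and by −0.51 (−0.66 to −0.36) in the 72 h pair, with 921 and 592. The difference between the times was not tested against replicates, since each condition had 1 library, and its counting interval ran from −0.94 to −0.54. The summed enteroendocrine markers had ratios of 1.16 at 48 h and 0.551 at 72 h, but without *Chgb* the first was 0.987, so that the higher sum at 48 h rested on that gene. The part of these markers in the values of *Cpe* was not tested. Per 100 marker counts, *Cpe* stood at 9.73 untreated and 9.88 with butyrate at 48 h, and at 8.91 and 11.4 at 72 h. With *Chgb* left out, the 48 h values were 19.7 and 23.4.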

How the results depend on the processing

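Alternatives were TMM scaling, total count scaling, a pseudocount of 5 and thinning to the smallest library, all on the same counts. Under them, 196 of 196 recomputed fold changes of members and differences between times stayed within their counting intervals. For *Pcsk2* at 72 h that interval had no lower end, and a pseudocount of 5 moved its value from −2.57 to −0.99. The numbers of members at least 2-fold lower did not change. Scaling to total counts shifted the all-gene median in the 72 h pair from 0.00 to 0.05, and moved 1 of 28 list medians past its limit, that of the other maturation enzymes at 72 h, from −0.16 to −0.11. The share of all genes at least 2-fold lower depended on the gene filter. With a mean scaled count of at least 50 it was 1.54% at 48 h, 1.60% at 72 h and 0.412% at both, and with all genes that had at least 1 count it was 9.40%, 8.25% and 1.75%, the wider set adding genes with few counts. With the longest transcript as length, 29 of 40 member levels stayed within their intervals and 11 moved, among *Pcsk1n*, *Pam* and *Scg2*. Each condition had 1 library, so no replicate could be left out, and no replicate block could be fitted within a time point. A fit of treatment with time as a block over the 4 libraries, which takes the 2 times as replicates of the treatment, could have been made and was not run. Depth limits *Pcsk2*, with at most 8 counts, and *Scgn*, with 18 to 49 counts.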

Other observations

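Marker lists of the other epithelial types were summed in the same libraries. The 6 tuft cell markers summed to scaled counts of 461 untreated and 362 with butyrate at 48 h, and to 504 and 161 at 72 h. The 8 goblet cell markers summed to 114554 and 92691 at 48 h, and to 167126 and 90756 at 72 h. Most of these sums came from *Muc2*, with 73062 and 52053 at 48 h, and 119430 and 65481 at 72 h. The 8 colonocyte markers summed to 53445 and 85785, and to 67934 and 45355, and the 5 stem cell markers to 18204 and 13277, and to 12746 and 20830. The 6 immune markers summed to between 41.7 and 71.3, with 1 of them past the filter. Lower sums at 72 h were thus found for the tuft, goblet, colonocyte and enteroendocrine lists, and a higher sum for the stem cell list. The part of these shifts in the members' values was not tested.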
